A study of Mus musculus with 6 samples.

Results

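The 10 genes described here carry out the urea cycle and the handling of ammonia in liver: Nags, Cps1, Slc25a15, Otc, Ass1, Asl, Arg1, Gls2, Glul and Oat. They were chosen by symbol from the 17441 genes of the deposited expression table, and all 10 were found and passed the filter on low counts. RNA-seq of whole mouse liver was available as 3 libraries from mice with a tamoxifen-inducible whole-body knockout of Nek7 (iKO) and 3 libraries from wild-type (WT) mice. All 6 livers, those of the WT mice included, were taken 10 days after tamoxifen. The age, strain and sex of the mice, the Cre driver, the deleted part of Nek7 and the hour of collection are not stated in the labels. The labels name each library as its own liver but do not state that each is 1 animal, so p-values measure the spread between these 6 samples.

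The urea cycle turns ammonia, which is toxic to the brain, into urea for excretion by the kidney. Its early steps run in the mitochondria of hepatocytes, where carbamoyl phosphate is made and joined to ornithine, and its later steps run in the cytosol, where argininosuccinate is built, split and cleaved to urea. In the liver lobule the cycle and the liver-type glutaminase belong mainly to hepatocytes near the portal vein, whereas glutamine synthetase is held by a thin layer around the central vein that takes up ammonia the cycle has left.

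The libraries held 18139507 to 19911983 expected counts. Levels are given as CPM, counts scaled to the library total and normalized between libraries by TMM. Nek7 itself did not separate the groups, with 50.2, 32.8 and 31.0 CPM in iKO livers and 55.5, 40.5 and 36.4 CPM in WT livers. Its log2 fold change was -0.22 (edgeR quasi-likelihood test, adjusted p = 0.541), so the knockout group is called the livers labelled iKO. Y-linked reads (Ddx3y and Kdm5d) were 573 to 883 expected counts in all 3 libraries labelled iKO and 1113 in WT 1, but 0 in WT 2 and WT 3, where a count of 0 allows up to 3 counts. Dbp, a gene with a daily rhythm in liver, had 128 ± 24.6 CPM in livers labelled iKO and 1.44 ± 0.757 CPM in WT livers (SD, n = 3 each). Differences also followed transcript length across genes, with a median log2 fold change of 0.33 over the genes with the shortest transcripts (up to 1602 bases) and -0.25 over those with the longest (above 4714 bases). The part of the Y-linked reads, of Dbp and of transcript length in the results below was not tested, except through the fits that are named there. A fit with a term for Y-linked reads compares the livers labelled iKO with WT 1 alone, the only WT liver that holds such reads.

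Asl was the 1 gene of the 10 that passed the test, and it was higher in the livers labelled iKO. No member was called lower at an adjusted p of 0.05 by edgeR, DESeq2 or limma. At an unadjusted p of 0.05, edgeR had 2 members higher, Asl and Oat, and 0 lower, while Cps1 was lower at that level by DESeq2 and by limma on FPKM. DESeq2 also had Slc25a15 (unadjusted p = 0.0199, adjusted p = 0.0845) and Ass1 (unadjusted p = 0.0253, adjusted p = 0.101) higher at that level, beside Asl and Oat. Across all 13160 genes tested 15.4% were called, 7.31% higher and 8.07% lower, so 1 of 10 members is no larger a share than the background. In 4 members the CPM of the groups did not overlap, with 3 above WT (Asl, Arg1 and Slc25a15) and 1 below (Cps1), against 39.0% of all genes tested (19.8% above and 19.2% below). The median log2 fold change was 0.27 over the 10 members and -0.02 over all genes tested.

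**Figure D1:**
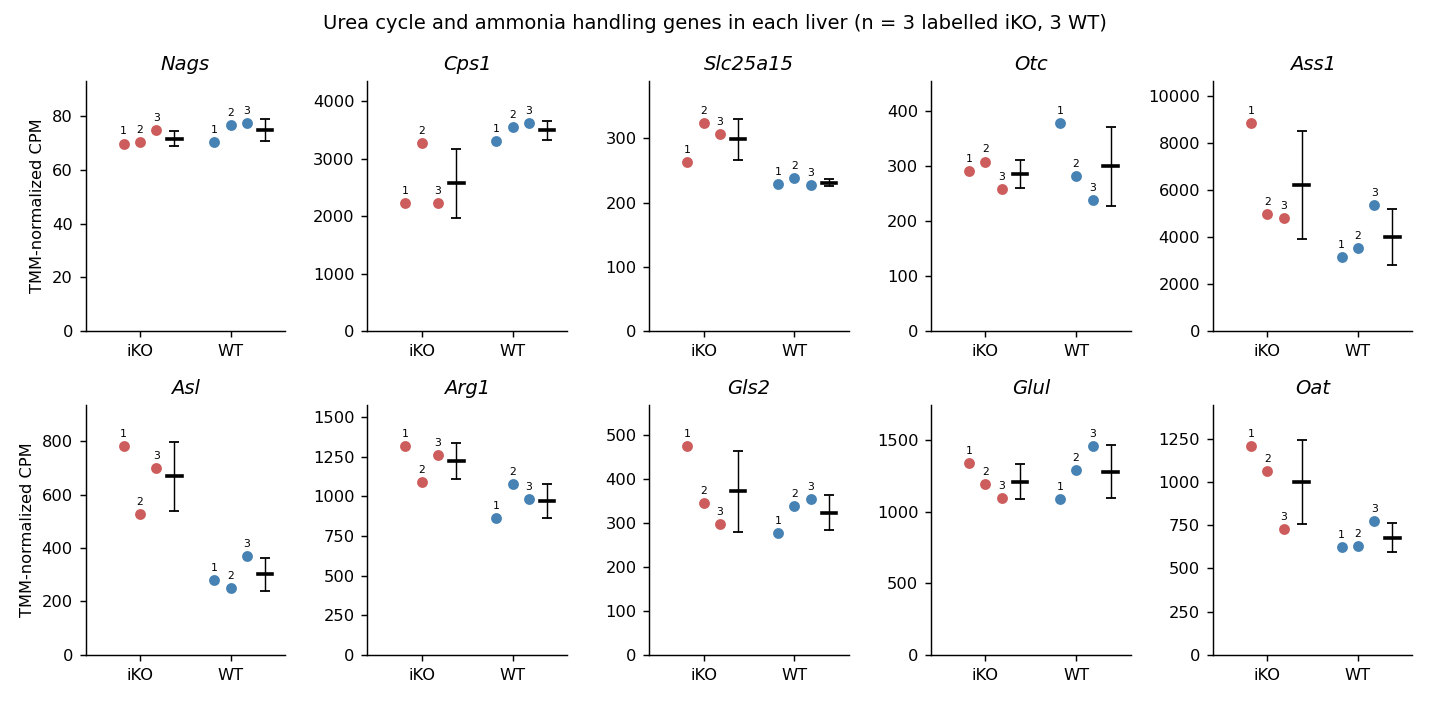
TMM-normalized CPM of the 10 members in each liver, with livers labelled iKO left and WT right in each panel, numbered by replicate, and bars for mean ± SD (n = 3 each). Asl stands at 527 to 780 CPM in livers labelled iKO and at 250 to 371 CPM in WT livers, while the groups overlap in Nags, Otc, Ass1, Gls2, Glul and Oat.

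Nags (gene ID 217214, chromosome 11) makes N-acetylglutamate, the compound without which carbamoyl phosphate synthetase 1 is inactive. It had 69.9, 70.5 and 74.8 CPM in livers labelled iKO, against 70.3, 76.7 and 77.6 CPM in WT livers. The groups overlapped within a narrow range, and the log2 fold change was -0.06 (standard error 0.15, 95% interval -0.39 to 0.27, edgeR adjusted p = 0.804).

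Cps1 (gene ID 227231, chromosome 1) encodes that synthetase, the entry of ammonia into the cycle. It had 2223, 3266 and 2221 CPM in livers labelled iKO, against 3309, 3545 and 3625 CPM in WT livers. Every iKO value lay below every WT value, but iKO 2 was close to WT 1 and far above the other livers labelled iKO. On the log2 scale the difference was -0.44 (SE 0.25, 95% interval -0.99 to 0.11, edgeR adjusted p = 0.24). By DESeq2 it was -0.42 (unadjusted p = 0.0453, adjusted p = 0.152), and by limma on log2(FPKM + 1), where the median of all genes was -0.12, it was -0.64 (unadjusted p = 0.0181, adjusted p = 0.0943). TPM is a level divided by transcript length, without the TMM step. In TPM the groups overlapped, at 464, 1002 and 704 in livers labelled iKO and 983, 1389 and 1211 in WT livers. The TPM means were 723 ± 269 in livers labelled iKO and 1194 ± 203 in WT livers (SD, n = 3 each). Dividing by length does not remove a length trend between libraries. Cps1 is the longest of the members, with an effective length of 5442 bases, and with a correction for transcript length its log2 fold change was -0.20.

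Slc25a15 (gene ID 18408, chromosome 8) is the mitochondrial carrier that brings ornithine in and takes citrulline out. It had 263, 324 and 307 CPM in livers labelled iKO, against 228, 238 and 227 CPM in WT livers. The groups did not overlap in CPM. The log2 fold change of 0.37 (SE 0.18, 95% interval -0.04 to 0.77, edgeR adjusted p = 0.186) did not pass the test. With a correction for transcript length it was larger, at 0.51 (edgeR adjusted p = 0.0643), and was also not called.

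Otc (gene ID 18416, chromosome X) joins carbamoyl phosphate to ornithine. It had 291, 308 and 257 CPM in livers labelled iKO and 378, 281 and 238 CPM in WT livers. The WT livers spanned the whole range of the livers labelled iKO, and the log2 fold change was -0.07 (SE 0.22, 95% interval -0.56 to 0.42, edgeR adjusted p = 0.858). Expected counts of Otc were fractional in all 6 libraries, a sign that reads were shared with other annotated sequence, so its level is less certain.

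Promoter windows from RefSeq (build GRCm38.p6, 250 bases before to 50 bases after a gene start) were at hand for 6 members in 7 windows: Nags, Otc, Ass1, Glul, Oat and Slc25a15. They were searched on both strands for an E-box (CACGTG), a D-box (TTATGNAA), a C/EBP motif (TTGCNNAA) and a TCF/LEF motif (CTTTGAT), which are letters known from daily clock, C/EBP and Wnt regulation and were chosen after the values had been seen. The D-box and C/EBP letters are alike and could overlap. The Ass1 and Otc windows are shown because they hold the E-box and the D-box among members of the cytosolic and mitochondrial arms, with the match in capitals.
Ass1, chr2:31470020-31470319, plus strand: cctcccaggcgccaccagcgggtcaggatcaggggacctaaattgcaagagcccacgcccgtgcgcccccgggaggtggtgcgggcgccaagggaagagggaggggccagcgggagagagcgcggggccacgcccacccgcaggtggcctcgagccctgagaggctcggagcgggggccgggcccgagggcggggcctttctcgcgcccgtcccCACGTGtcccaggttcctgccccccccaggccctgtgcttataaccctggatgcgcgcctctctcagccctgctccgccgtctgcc
Otc, chrX:10252055-10252354, plus strand: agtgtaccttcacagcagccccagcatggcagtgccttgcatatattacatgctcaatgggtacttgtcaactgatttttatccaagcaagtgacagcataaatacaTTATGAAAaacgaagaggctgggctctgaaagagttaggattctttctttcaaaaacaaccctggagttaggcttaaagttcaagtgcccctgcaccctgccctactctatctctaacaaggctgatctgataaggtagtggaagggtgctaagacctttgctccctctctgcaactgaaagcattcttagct
The Ass1 match starts 36 bases before the gene start and the Otc match 143 bases before it. Slc25a15 has an E-box 77 bases before the start in 1 of its windows, and Nags has a TCF/LEF match 204 bases before. Among 32851 promoter windows of the same length, 7.15% hold the E-box, 3.38% the D-box, 10.8% the C/EBP motif and 3.73% the TCF/LEF motif. A match is a description of these letters and not of binding.

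Ass1 (gene ID 11898, chromosome 2) condenses citrulline with aspartate to argininosuccinate, and aspartate brings in the second nitrogen of urea. It had 8867, 4969 and 4830 CPM in livers labelled iKO, against 3142, 3541 and 5363 CPM in WT livers. In CPM the level of iKO 1 stood well above all others, and WT 3 lay above iKO 2 and iKO 3. In TPM iKO 1 and WT 3 were close, at 6336 and 6195 TPM. The log2 fold change of 0.63 (SE 0.33, 95% interval -0.10 to 1.36, edgeR adjusted p = 0.207) had the widest interval of the 10 members and did not pass.

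Asl (gene ID 109900, chromosome 5) splits argininosuccinate into arginine and fumarate. It had 780, 527 and 699 CPM in livers labelled iKO, against 282, 250 and 371 CPM in WT livers. The lowest iKO liver lay above the highest WT liver. The means were 669 ± 129 CPM in livers labelled iKO and 301 ± 62.5 CPM in WT livers (SD, n = 3 each). This is 2.22-fold, or 1.15 on the log2 scale (SE 0.24, 95% interval 0.61 to 1.69, edgeR adjusted p = 0.0155). The groups did not overlap in TPM either, at 532, 528 and 723 in livers labelled iKO and 275, 321 and 406 in WT livers.

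The direction of Asl was the same with each library left out, with log2 fold changes of 1.03 to 1.33, but the call ended without WT 2 (adjusted p = 0.0804), where 3.69% of genes were called. Once a model term for Y-linked reads was added, the value was 1.25 (edgeR adjusted p = 0.178, 1.40% of genes called), and among the 4 libraries that hold such reads it was 1.26 (edgeR adjusted p = 0.271, 1.05% called). With a correction for transcript length the call was kept, at 1.03 (edgeR adjusted p = 0.0159, 11.4% called), and with both adjustments together it was lost, at 1.09 (edgeR adjusted p = 0.18, 1.27% called).

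Arg1 (gene ID 11846, chromosome 10) releases urea and returns ornithine to the cycle. It had 1313, 1091 and 1257 CPM in livers labelled iKO, against 860, 1074 and 983 CPM in WT livers. Every iKO value lay above every WT value, but iKO 2 lay close to WT 2. The log2 fold change was 0.33 (SE 0.22, 95% interval -0.16 to 0.81, edgeR adjusted p = 0.32), and in TPM the groups overlapped around nearly equal means, 1274 ± 235 TPM in livers labelled iKO and 1282 ± 319 TPM in WT livers (SD, n = 3 each).

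**Figure D2:**
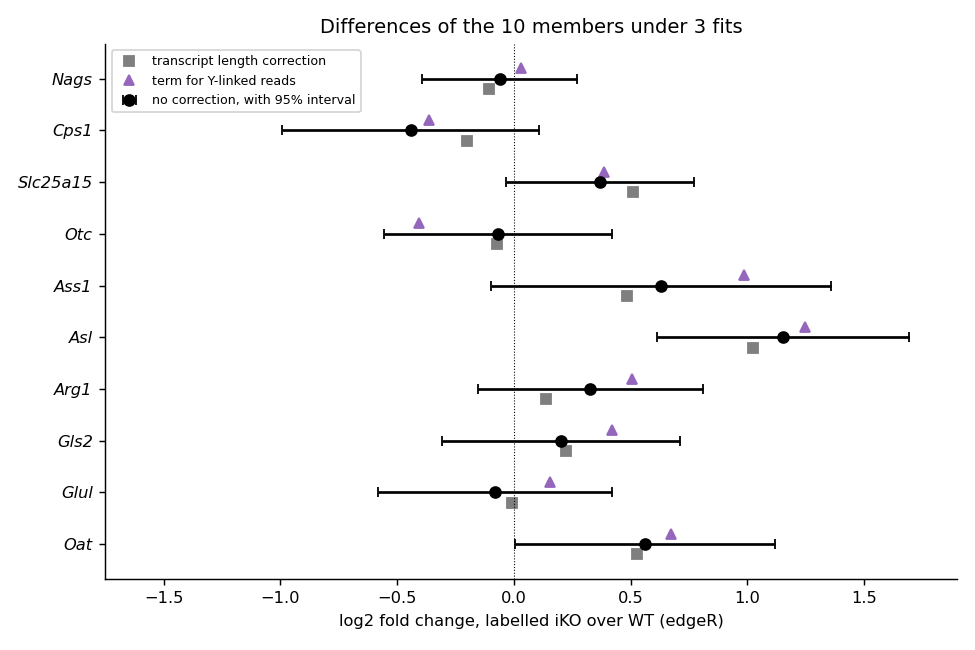
Log2 fold change of the 10 members, livers labelled iKO over WT, from edgeR without correction (circles with 95% intervals), with a correction for transcript length (squares) and with the Y-linked term (triangles). Asl, at 1.15, 1.03 and 1.25, is the furthest from 0 in all 3 fits, and Nags and Glul change sign with that term.

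Gls2 (gene ID 216456, chromosome 10), the liver-type glutaminase, frees ammonia from glutamine next to the cycle. It had 475, 345 and 298 CPM in livers labelled iKO, against 278, 338 and 355 CPM in WT livers. Only iKO 1 stood above the WT range in CPM, and the log2 fold change was 0.20 (SE 0.23, 95% interval -0.31 to 0.71, edgeR adjusted p = 0.567). In TPM iKO 1 lay inside the WT range, at 225 TPM against 187, 301 and 269 TPM in WT livers. Expected counts of Gls2 were fractional in 5 libraries.

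Glul (gene ID 14645, chromosome 1), glutamine synthetase, binds ammonia to glutamate in the pericentral layer. It had 1340, 1194 and 1100 CPM in livers labelled iKO and 1087, 1296 and 1458 CPM in WT livers. The groups overlapped, with the WT livers the more spread, and the log2 fold change was -0.08 (SE 0.22, 95% interval -0.58 to 0.42, edgeR adjusted p = 0.835).

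Oat (gene ID 18242, chromosome 7), ornithine aminotransferase, turns ornithine into a precursor of glutamate and proline, and in liver is found with glutamine synthetase in the pericentral layer. It had 1206, 1063 and 730 CPM in livers labelled iKO, against 627, 632 and 774 CPM in WT livers. Although iKO 1 and iKO 2 lay above all WT livers, iKO 3 fell inside the WT range. The log2 fold change was 0.56 (SE 0.25, 95% interval 0.00 to 1.12), with an unadjusted p of 0.0489 and an edgeR adjusted p of 0.149.

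Transcript levels per length spanned a wide range among the members. Ass1 was the most abundant, with 5602 ± 636 TPM in livers labelled iKO and 4738 ± 1489 TPM in WT livers (SD, n = 3 each), and Nags the least, with 52.4 ± 12.6 TPM in livers labelled iKO and 67.8 ± 12.2 TPM in WT livers. By mean TPM over all 6 livers the order was Ass1, Arg1, Cps1, Glul, Oat, Asl, Gls2, Otc, Slc25a15 and Nags. Each step held in all 6 livers for Ass1 over Arg1, Asl over Gls2, Otc over Slc25a15 and Slc25a15 over Nags. In the middle of the order the neighbours were not separate: Glul exceeded Oat in 4 of 6 livers, and the other steps held in 5 of 6.

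The 10 transcripts together made up 1.01%, 1.03% and 1.01% of all TPM in livers labelled iKO, against 0.719%, 1.06% and 1.14% in WT livers. By this measure the livers labelled iKO were close together and lay inside the WT range, in which WT 1 was the lowest. Summed CPM of the 10 members was 16828, 13158 and 11775 in livers labelled iKO and 10262, 11273 and 13471 in WT livers. In CPM the livers labelled iKO were thus spread, and iKO 1 lay above all WT livers. Ass1 alone took 63.0%, 50.9% and 52.0% of the summed TPM of the 10 members in livers labelled iKO, against 44.8%, 45.4% and 54.6% in WT livers.

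**Figure D3:**
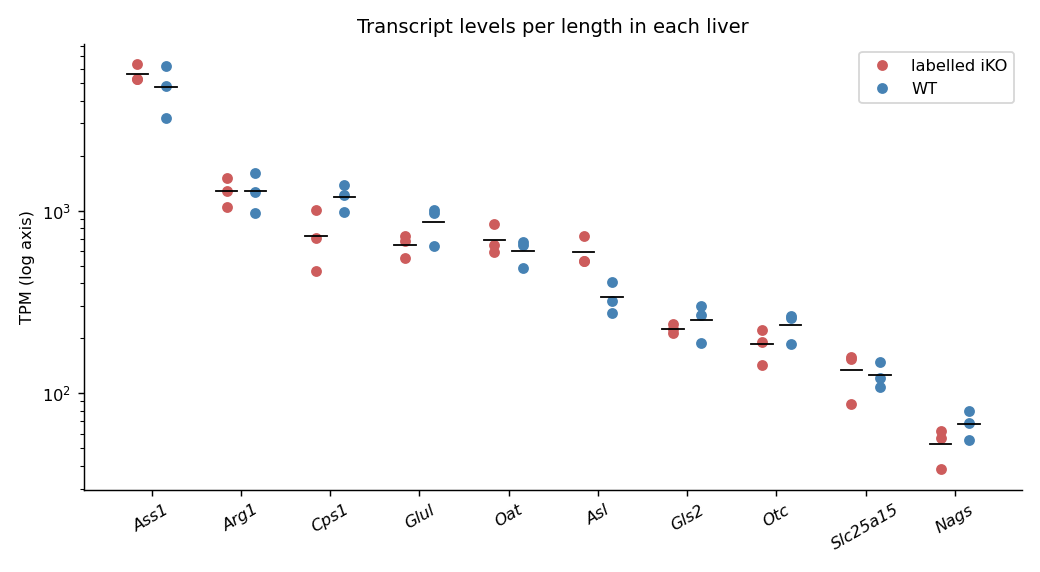
TPM of each member in each liver on a log axis, ordered by the mean over all 6 livers, with livers labelled iKO left of WT and lines for group means. Ass1 lies above every other member and Nags below, at means over all livers of 5170 and 60.1 TPM, while the middle members overlap.

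Ratios within a liver set the portal genes against the central ones and were given as descriptions without a test. The log2 ratio of TPM of Gls2 over Glul was -1.29, -1.60 and -1.68 in livers labelled iKO, against -1.77, -1.74 and -1.85 in WT livers. Every iKO value lay above every WT value, with a difference of means of 0.26 and most of the spread from iKO 1. For Cps1 over Glul the log2 ratio was -0.24, 0.47 and 0.04 in livers labelled iKO, against 0.62, 0.46 and 0.33 in WT livers, and the groups overlapped through iKO 2. For Arg1 over Oat it was 0.68, 0.60 and 1.34 in livers labelled iKO and 1.02, 1.32 and 0.91 in WT livers, again with overlap.

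Within the cycle, the balance of Asl to Cps1 differed most between the groups among the ratios computed, a ratio chosen after the values had been seen. Its log2 value was 0.20, -0.92 and 0.04 in livers labelled iKO, against -1.84, -2.11 and -1.58 in WT livers. Asl was thus near the level of Cps1 in iKO 1 and iKO 3 and well under it in every WT liver, with means of -0.23 ± 0.61 in livers labelled iKO and -1.84 ± 0.27 in WT livers (SD, n = 3 each). The Asl transcript, with an effective length of 1663 bases, is far shorter than that of Cps1. With the length correction their log2 fold changes were 1.03 and -0.20, nearer to each other than 1.15 and -0.44 without it.

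**Figure D4:**
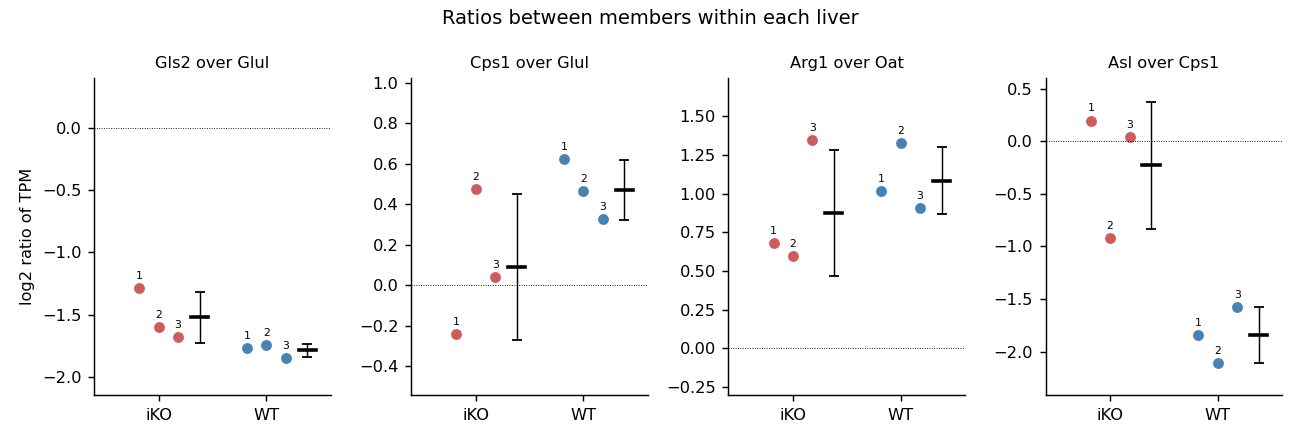
Log2 ratio of TPM between pairs of members in each liver, numbered by replicate, with livers labelled iKO left of WT and bars for mean ± SD (n = 3 each). The groups do not overlap for Gls2 over Glul and for Asl over Cps1, and overlap for Cps1 over Glul and Arg1 over Oat.

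The members did not follow one common pattern over the 6 livers. Likeness was measured as the root mean square difference of log2(CPM + 1) after centring each gene on its mean, over 7701 genes that averaged 10 CPM or more. The smallest differences between members were 0.138 on the log2 scale for Nags and Glul, 0.176 for Gls2 and Glul and 0.183 for Arg1 and Slc25a15. These genes vary little around their own means, by 0.0617 for Nags, 0.153 for Glul, 0.203 for Slc25a15, 0.205 for Arg1 and 0.243 for Gls2, so a small difference shows little shared pattern. Asl varied the most, by 0.622, and Ass1 by 0.479. The gene nearest to Asl among the members was Ass1, at 0.362, and the nearest of all genes searched were Eif4ebp1 at 0.0800, Mif at 0.101 and Arl4d at 0.101. The gene nearest to Oat was Cebpa at 0.0603, the gene of a C/EBP factor, and those nearest to Cps1 were Ptpra, Zadh2 and Ipmk, at 0.0597 to 0.0625. For Ass1 the nearest were Lgals1 at 0.0868, Ifitm2 at 0.114 and Hs6st1 at 0.117. For Otc, Nags, Glul and Gls2 the nearest genes were Tbl1xr1, Nfrkb, Fto and Irf9, at 0.0223 to 0.0353.

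Genes that feed, carry or control ammonia were described from 5 lists of 80 tested genes outside the 10. Of these 13 were called higher and 6 lower, which is 23.8% against 15.4% of all genes tested. Their medians were near that of all genes, from -0.05 to 0.02 on the log2 scale, except for the regulators at 0.31.

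The enzymes and carriers of glutamate, aspartate and alanine included 3 higher and 1 lower of 22 tested genes. Got1, the cytosolic aspartate aminotransferase, had 636, 629 and 636 CPM in livers labelled iKO, against 144, 219 and 241 CPM in WT livers. The livers labelled iKO were nearly equal and all far above WT, with a log2 fold change of 1.65 (SE 0.24, edgeR adjusted p = 0.00332), and the call was kept with the Y-linked term, at 2.14. Slc25a22, a mitochondrial glutamate carrier, had 318, 250 and 236 CPM in livers labelled iKO and 93.1, 97.9 and 116 CPM in WT livers, a log2 fold change of 1.39 (edgeR adjusted p = 0.00332). Gpt2, the mitochondrial alanine aminotransferase, had 512 ± 18.5 CPM in livers labelled iKO and 313 ± 27.6 CPM in WT livers (log2 fold change 0.71, edgeR adjusted p = 0.0341). Gatm, which starts creatine synthesis from arginine, was scarce and lower, at 2.61 ± 1.5 CPM in livers labelled iKO and 7.72 ± 1.84 CPM in WT livers (log2 fold change -1.56, edgeR adjusted p = 0.0271). The mitochondrial ammonia-releasing Glud1 and the mitochondrial aminotransferase Got2 were not called, with log2 fold changes of -0.34 and 0.19.

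Among carriers of glutamine, glutamate and ammonia, 3 of 11 tested genes were higher and 2 lower. Slc38a2, a glutamine and neutral amino acid importer, had 330, 185 and 213 CPM in livers labelled iKO, against 71.2, 58.8 and 59.4 CPM in WT livers. The groups were well apart, with a log2 fold change of 1.94 (SE 0.24, edgeR adjusted p = 0.00211). Slc1a2, a glutamate importer of the pericentral layer, had 227 ± 25.4 CPM in livers labelled iKO and 125 ± 23.5 CPM in WT livers (log2 fold change 0.86, edgeR adjusted p = 0.0237). Rhbg, an ammonia carrier of the same layer named here after its values were seen, had 26.6 ± 0.513 CPM in livers labelled iKO and 16.6 ± 3.95 CPM in WT livers (log2 fold change 0.68, edgeR adjusted p = 0.0382). The neutral amino acid carriers Slc7a8 and Slc1a4 were lower, with log2 fold changes of -1.55 and -1.40 (edgeR adjusted p = 0.00647 and 0.0304). Slc38a3, the abundant glutamine carrier of hepatocytes, was not called and had 1857 ± 467 CPM in livers labelled iKO and 1464 ± 338 CPM in WT livers.

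Of 17 tested genes whose enzymes release ammonia or nitrogen from other amino acids, 3 were higher and 1 lower. Sds, serine dehydratase, had 581, 403 and 482 CPM in livers labelled iKO, against 96.0, 181 and 194 CPM in WT livers. No iKO value came near the WT range, and the log2 fold change was 1.64 (SE 0.29, edgeR adjusted p = 0.0083). Its relative Sdsl and the cystathionine lyase gene Cth were also higher, by 0.74 and 0.70 on the log2 scale (edgeR adjusted p = 0.0333 and 0.0448). The calls of both ended with the length correction, and that of Cth ended without any 1 of the 6 libraries. Gldc, of the glycine cleavage system, was lower, with 91.5, 74.9 and 56.8 CPM in livers labelled iKO against 180, 223 and 217 CPM in WT livers (log2 fold change -1.47, SE 0.22, edgeR adjusted p = 0.00361).

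In the list of carriers and helpers of the cycle, 1 of 11 tested genes was called. Car5a, the mitochondrial carbonic anhydrase that supplies bicarbonate to Cps1, was lower, with 39.3, 46.1 and 34.1 CPM in livers labelled iKO and 61.4, 67.4 and 57.7 CPM in WT livers. The groups did not overlap, and the log2 fold change was -0.64 (SE 0.17, edgeR adjusted p = 0.0317). Slc25a13, the aspartate and glutamate carrier citrin, was not called at -0.21, nor was Slc7a2, a carrier of arginine and ornithine, at 0.60 (edgeR adjusted p = 0.452 and 0.105).

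Of 19 tested regulators of these genes, 4 were higher and 1 lower. Cebpb, a C/EBP factor that acts on urea cycle genes, had 441, 321 and 233 CPM in livers labelled iKO, against 96.5, 70.8 and 81.3 CPM in WT livers. The log2 fold change was 2.00 (SE 0.26, edgeR adjusted p = 0.00238). Klf15, a factor of amino acid breakdown in fasting, had 256, 267 and 269 CPM in livers labelled iKO and 115, 144 and 133 CPM in WT livers, with a log2 fold change of 1.02 (edgeR adjusted p = 0.00794). Hnf4a was higher by 0.79, a call that ended without any 1 of the 6 libraries, and Foxo1, named after its values were seen, by 0.57 (edgeR adjusted p = 0.0414 and 0.0421). Nr3c1, the glucocorticoid receptor gene, was lower, at 49.1 ± 7.31 CPM in livers labelled iKO and 79.0 ± 4.77 CPM in WT livers (log2 fold change -0.69, edgeR adjusted p = 0.0267). Cebpa was not called, at 0.55.

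**Figure D5:**
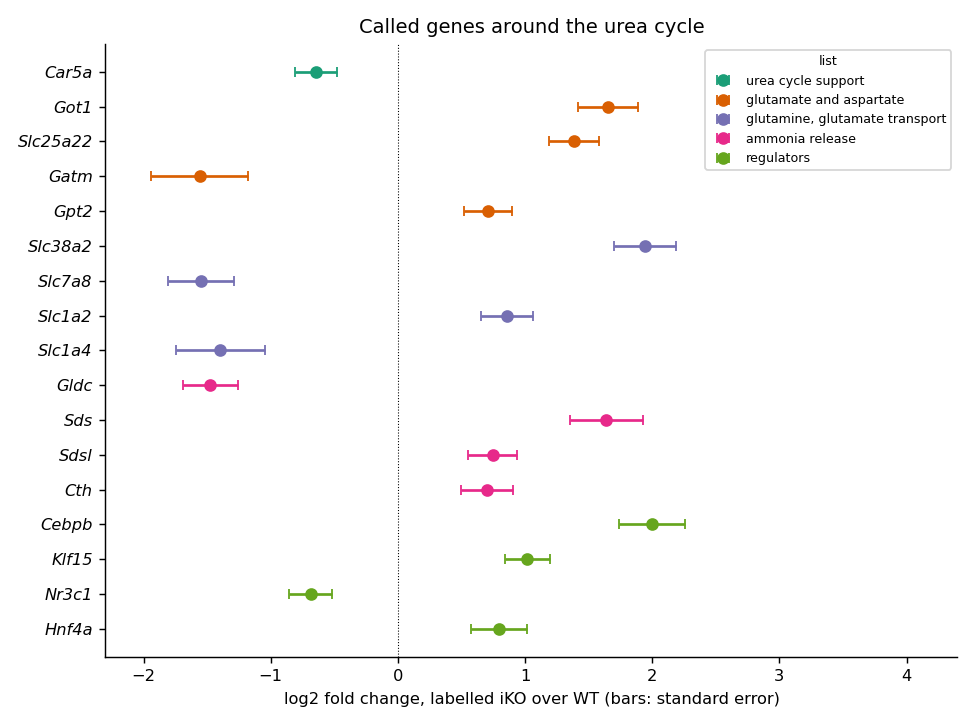
Log2 fold change, livers labelled iKO over WT, with its standard error, of the called genes named by rule from the 5 lists around the urea cycle, coloured by list. Slc38a2 at 1.94, Got1 at 1.65, Sds at 1.64 and Cebpb at 2.00 are among those above 0, and Gatm, Slc7a8, Slc1a4, Gldc, Car5a and Nr3c1 lie below 0.

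Fewer of these genes, and fewer of all genes, were called once Y-linked reads or single libraries were taken into account. With the Y-linked term 2 of the 80 genes were called, Got1 and Sds, against 1.40% of all genes tested. Without WT 2, which has no Y-linked reads, 8 of the 80 were called, against 3.69% of all genes tested. Of the 33 called genes that the rule names, 16 were called in all 6 fits that leave out 1 library, Got1, Slc25a22, Slc38a2, Sds, Gldc, Cebpb and Klf15 among them. Calls that ended in at least 1 of these fits include Car5a, Gpt2, Gatm, Slc1a2, Slc1a4 and Nr3c1. Expected counts of Gpt2, Slc1a2 and Slc7a8 were fractional in 6 libraries, and those of Car5a in 5, so these levels are less certain.

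Markers of the lobule's zones outside the 10 genes were called in both directions. Of 17 tested periportal markers 2 were higher and 4 lower, and of 18 tested pericentral markers 4 were higher and 4 lower, larger shares than the 15.4% of all genes tested. With the Y-linked term 1 was higher and 0 lower in each list, against 1.40% of all genes. Without WT 2 the counts were 2 higher and 2 lower periportal and 0 higher and 1 lower pericentral, against 3.69% of all genes. Leaving out any other library gave 2 to 5 called pericentral markers in all, against 8 with all libraries. Sds and Gldc are periportal markers too, and Slc1a2 and Rhbg pericentral ones, and they count in both places. Pck1, the gluconeogenic enzyme of the portal zone, had 3098, 4200 and 3306 CPM in livers labelled iKO, against 833, 1062 and 779 CPM in WT livers (log2 fold change 1.99, edgeR adjusted p = 0.00218). The Wnt target gene Axin2 of the central zone was lower, at 4.87 ± 1.62 CPM in livers labelled iKO and 12.6 ± 1.07 CPM in WT livers (log2 fold change -1.37, edgeR adjusted p = 0.00861). Lgr5, another such target, was lower at 3.28 ± 0.511 CPM in livers labelled iKO and 9.58 ± 3.29 CPM in WT livers (log2 fold change -1.55, edgeR adjusted p = 0.01), and its call ended without WT 2. Cyp2a5 of the same zone was higher, with a log2 fold change of 1.27 (edgeR adjusted p = 0.0303), a call that ended without iKO 2, without iKO 3 and without WT 2. The portal gene Ctsc was lower, with a log2 fold change of -1.37 (edgeR adjusted p = 0.00802). Expected counts of Pck1, Cyp2a5 and Ctsc were fractional in 6 libraries. The other called markers, chosen after their values were seen, were Cdh1 and Aldh1b1 among the periportal and Gstm1, Rnf43 and Nkd1 among the pericentral ones.

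Hepatocyte markers were abundant in every library, the summed level of 9 such genes being 104803 to 116585 CPM in livers labelled iKO and 101744 to 114231 CPM in WT livers. Most of that sum was Alb, albumin, at 66386 to 83264 CPM in livers labelled iKO and 76017 to 91157 CPM in WT livers. The median log2 fold change of the 9 genes was 0.49, with 2 called higher, 0 lower and 6 wholly above WT in the livers labelled iKO. Of all genes tested 7.31% were called higher, 8.07% were called lower and 19.8% lay wholly above WT. Markers of other liver cells moved with the groups. Summed levels were 158 to 218 CPM in livers labelled iKO and 278 to 504 CPM in WT livers for 8 Kupffer cell genes, of which 6 were called lower. For 8 stellate cell genes they were 132 to 168 CPM in livers labelled iKO and 288 to 476 CPM in WT livers, with 6 called lower. For 8 endothelial genes they were 74.1 to 143 CPM in livers labelled iKO and 163 to 259 CPM in WT livers, with 3 called lower. These counts also depended on the fit. With the Y-linked term 0 Kupffer cell, 3 stellate cell and 0 endothelial genes were called lower, against 0.805% of all genes. Without WT 2 the counts were 1, 4 and 0, against 1.98% of all genes. The endothelial count was also 0 without WT 3 and with the length correction, and 1 without iKO 1, and the Kupffer cell count was 2 without iKO 3 and 3 without WT 3. No gene of these 3 lists was at 0 in all libraries. In whole tissue, fewer cells of a type and less RNA per cell cannot be told apart, and the part of these cells in the levels of the 10 genes was not tested.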

How the data were processed

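Whole-liver RNA was sequenced in 3 livers labelled iKO and 3 WT livers. The submitters' processing notes name RSEM 1.2.12 beside HISAT2 2.0.4, Bowtie2 2.2.5 and the mouse build mm9, without their roles. Whether counting used strand was not found in the labels. The authors deposited expected counts for each library, which need not be whole (64.9% to 68.3% were whole within 0.001). The authors also deposited FPKM, which divide by depth and transcript length, and the deposited TPM values sum to the same total in each library.

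Expected counts were rounded and tested with edgeR 4.0.16 in R 4.3.3 (filterByExpr, TMM, a robust quasi-likelihood F test and p-values adjusted by Benjamini-Hochberg over 13160 genes, threshold 0.05). A called gene passed that threshold. A standard error is the size of the log2 fold change divided by the root of F, and 95% intervals use the quasi-likelihood degrees of freedom. TMM factors ran from 0.780 (iKO 1) to 1.18 (WT 2). At these depths the livers vary more than counting error for the 10 genes, and limits from a count of 0 (3 counts) cover counting error only. Effective transcript length was computed from the deposited expected counts and FPKM, and the length correction is an offset from a lowess trend in each library. Further fits used limma 3.58.1 and DESeq2 1.42.0. The edgeR step was tested on simulated data with 100 genes changed 2-fold and 100 changed 4-fold. It recovered 39% of the 2-fold and 83% of the 4-fold changes, with 9 false genes among 131 called. A gene that was not called may thus still differ by 2-fold. The files' build differs from the reference at hand, so gene positions are not given beyond chromosomes and RefSeq promoter windows.

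The 10 genes, the lists and the rule for named genes were chosen with earlier results of these data known. The rule names all 10 genes, up to 4 called genes of each pathway and zone list by smallest adjusted p, and up to 2 of each other marker list. Genes named outside it, beside those marked in the text, are Nek7, Dbp, Ddx3y, Kdm5d and the genes given as not called.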

Additional observations from a re-analysis of the deposited data

How the results depend on the processing

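Of the 10 genes, 1 (Asl) was called under the other normalizations, filters and tools tried, with a length correction and with the replicate number as a block (replicate block, 1 called, 1710 of all genes against 2024 without it). The count was 0 with a term for Y-linked reads, and 0 with that term and a length correction together, a fit added after seeing the data. Leaving out 1 library gave 0 to 1. The 19 called genes of the 5 lists became 2 and 3 under those 2 fits with the Y-linked term, where 1.40% and 1.27% of all genes were called. They became 8 to 15 with 1 library left out (8 without WT 2), and 15 with the replicate block. Same-numbered livers correlated at 0.207, 0.218 and 0.0458, and not every liver correlated best with its own number, since iKO 3 had 0.334 with WT 2. With so few livers these values do not decide whether the numbers pair them. The cause of each change was not tested, though fewer libraries or an added term leave fewer degrees of freedom.

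Members near 0 turned sign. Nags became 0.029 on the log2 scale with the Y-linked term and 0.035 among the libraries with Y-linked reads. Glul became 0.16 and 0.16 in those fits and 0.20 with the term and the length correction together. With 1 library left out, Otc ran from -0.21 to 0.14, Gls2 from -0.0065 to 0.37 and Glul from -0.18 to 0.022. No other gene that the rule names turned sign. Of 756 values over the 42 genes of the rule, 581 kept their direction and side of the threshold. A further 165 kept the direction but lost the call, and 10 turned. Genes named outside the rule are not among these values. The Ass1 share of summed TPM and the Gls2 to Glul ratio kept their direction with 1 library left out. FPKM cannot test them, since a share or ratio within a library is the same in FPKM as in TPM, apart from rounding. On log2(FPKM + 1) the median of all genes was -0.12 and that of the 10 members 0.07.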

Other observations

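Other cell markers outside the comparison of the 10 genes also moved. Of 8 neutrophil markers 5 were called lower in livers labelled iKO, against 8.07% of all genes tested. Mpo, myeloperoxidase, led them at 0.144 ± 0.102 CPM in livers labelled iKO and 4.32 ± 2.92 CPM in WT livers (SD, n = 3 each, edgeR adjusted p = 0.00329). Next was Elane at 0.287 ± 0.040 CPM in livers labelled iKO and 1.73 ± 1.16 CPM in WT livers (edgeR adjusted p = 0.0188). S100a8, S100a9 and Retnlg were not called, with log2 fold changes of -0.95, -0.69 and 0.14 (edgeR adjusted p = 0.428, 0.506 and 0.867). The neutrophil count was 1 with the Y-linked term, 2 without iKO 1, 1 without iKO 2, 1 without iKO 3 and 3 without WT 3, and the call of Elane ended without iKO 2, iKO 3 or WT 3. The summed level of the neutrophil list was 20.3, 11.4 and 35.6 CPM in livers labelled iKO and 27.3, 40.0 and 122 CPM in WT livers, so it overlapped. The stellate cell genes Reln and Lrat were lower by log2 fold changes of -2.47 and -3.03, and the macrophage gene Adgre1 by -1.90. The tyrosine aminotransferase gene Tat, a hepatocyte marker, was higher, at 3159 ± 454 CPM in livers labelled iKO and 1011 ± 252 CPM in WT livers (edgeR adjusted p = 0.00571). None of 6 tested cholangiocyte genes and none of 9 lymphocyte and red cell genes was called. Their summed levels were 64.3, 210 and 401 CPM in livers labelled iKO against 104, 187 and 129 CPM in WT livers for the cholangiocyte list, and 841, 327 and 162 CPM in livers labelled iKO against 416, 244 and 262 CPM in WT livers for the blood cell list.

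Of the enterocyte list 1 of 4 tested genes, Fabp2, was called, at 9.71 ± 3.77 CPM in livers labelled iKO and 24.3 ± 7.25 CPM in WT livers (edgeR adjusted p = 0.0213), a call that ended without iKO 2, iKO 3 or WT 2, while the defining intestinal factor Cdx2 was at 0 in all libraries. Kidney tubule genes summed to 14.7 CPM in iKO 2, of which Kap gave 10.7 CPM, against 0.400 and 0.470 CPM in iKO 1 and iKO 3 and 1.45 to 2.81 CPM in WT livers. The part of these markers in the levels of the 10 genes was not tested.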
